A study of Mus musculus with 18 samples.

Results

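H3K9me2 ChIP-seq was compared between livers of fasted and refed WT mice. The comparison used the 4 deposited H3K9me2 summit lists, from fasted 1, fasted 2, refed 1 and refed 2, which were chosen by their sample labels and not by any measured value. They held 32372 summits, of 55645 in the 10 livers of the series that had summit lists. A summit is the base at which the enrichment of a called peak was highest. The series had 18 samples, and its other assays were ATAC-seq in WT and JMJD1C-LKO livers and RNA-seq in refed livers. The 4 mice were wildtype c57bl/6j, kept on chow and fasted overnight, and the refed pair was then given a high carbohydrate diet for 6 h. The labels give every sample the same feeding text, so the feeding state was read from the letter F or R in each sample title. The antibody was ab176882 against histone H3 dimethylated at lysine 9. Each sample was 1 liver whose chromatin was handled separately, with an input library of its own, so there were 2 livers per state.

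Histone H3 lysine 9 can carry 1 to 3 methyl groups, written by the methyltransferases EHMT1, EHMT2, SUV39H1 and SETDB1 among others. The groups are removed by Jumonji demethylases, of which KDM3A and JMJD1C act on the mono- and dimethylated forms. Dimethylation is best known as a mark of silent euchromatin, while trimethylation marks repeats and pericentromeric heterochromatin. In liver, fasting turns on gluconeogenesis, fatty acid oxidation and ketone body production, and refeeding with carbohydrate turns on glycolysis, de novo lipogenesis and cholesterol synthesis through insulin, SREBP-1c, ChREBP and USF-1.

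Sequences around 9 summits are printed to show what kind of DNA the lists held, each 121 bases wide with the summit in the middle, on the plus strand of mm10, with CpG dinucleotides in capitals. The first 3 lie in metabolic genes that the results below turn on. The Fasn window at chr11:120823706-120823826 lay in an intron of the fatty acid synthase gene and was centered on its refed 2 summit. The Nr0b2 window at chr4:133553659-133553779 lay in coding sequence of the gene for SHP, a nuclear receptor that represses bile acid synthesis, and was also centered on the refed 2 summit. The Fgf21 window at chr7:45615049-45615169 was centered on the fasted 1 summit, with 101 of its 121 bases in coding sequence.
Fasn: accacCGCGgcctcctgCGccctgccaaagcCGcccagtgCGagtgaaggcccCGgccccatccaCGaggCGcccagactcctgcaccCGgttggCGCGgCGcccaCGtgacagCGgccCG
Nr0b2: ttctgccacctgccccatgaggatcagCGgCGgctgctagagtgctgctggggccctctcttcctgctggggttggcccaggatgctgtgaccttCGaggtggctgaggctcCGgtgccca
Fgf21: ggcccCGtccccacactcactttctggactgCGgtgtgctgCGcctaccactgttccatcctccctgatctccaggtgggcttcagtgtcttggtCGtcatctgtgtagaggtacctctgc
The Fasn window held 15 CpG and the others 4 each. It also held the E-box CACGTG, a palindrome that reads the same on both strands and is the sequence USF is known to bind. That motif stood in 1.76% of windows of this length around refed 2 summits and in 1.81% of windows placed 250 bp downstream of all annotated starts, and it is a match of letters only.

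A pair of windows shows summits within 1000 bp of the starts of hepatocyte genes with a summit in both fasted livers and none nearby in refed 2. Igfbp1, the insulin-repressed IGF binding protein, is shown at chr11:7198360-7198480 and Alb, the albumin gene, at chr5:90461374-90461494. Both windows were intronic and centered on the fasted 1 summit.
Igfbp1: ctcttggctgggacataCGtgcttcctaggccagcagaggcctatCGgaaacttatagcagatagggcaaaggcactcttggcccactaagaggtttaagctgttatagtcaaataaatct
Alb: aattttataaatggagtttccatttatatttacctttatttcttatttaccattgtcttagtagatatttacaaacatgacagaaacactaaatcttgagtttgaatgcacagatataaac
These windows were poor in CpG, with 2 in the Igfbp1 window and 0 in the Alb window, whose GC content was 24.8%.

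The last 4 windows show the DNA in the refed 1 list, which stood apart. Acot1, an acyl-CoA thioesterase gene, is shown at chr12:84009572-84009692 in coding sequence and is one of the few promoters that the list shared with the other livers. The 5S ribosomal RNA gene n-R5s110 is shown by its flank at chr8:123555641-123555761. A pair of the strongest refed 1 summits follows, at chr1:24615820-24615940, which matches the mitochondrial genome, and at chr9:3023529-3023649 in a repeat near the start of that chromosome.
Acot1: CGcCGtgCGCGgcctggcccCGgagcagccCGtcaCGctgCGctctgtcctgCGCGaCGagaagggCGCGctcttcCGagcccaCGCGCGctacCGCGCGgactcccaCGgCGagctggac
n-R5s110: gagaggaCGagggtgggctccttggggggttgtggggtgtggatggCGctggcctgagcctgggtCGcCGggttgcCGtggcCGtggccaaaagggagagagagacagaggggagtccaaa
chr1:24615820-24615940: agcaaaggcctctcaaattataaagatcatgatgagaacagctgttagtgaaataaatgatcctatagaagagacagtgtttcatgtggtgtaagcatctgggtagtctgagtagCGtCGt
chr9:3023529-3023649: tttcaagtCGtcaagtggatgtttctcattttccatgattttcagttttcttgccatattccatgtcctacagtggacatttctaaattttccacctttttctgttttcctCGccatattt
The Acot1 window held 22 CpG and the n-R5s110 window 6, and each of the other windows held 2.

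The refed 1 list differed from the other lists in length and in content. It had 1297 summits, against 7690 in fasted 1, 13456 in fasted 2 and 9929 in refed 2. The score of a summit is the −log10 of the q-value that the peak caller gave, and its median was 3.74 in refed 1, 12.3 in fasted 1, 32.2 in fasted 2 and 15.4 in refed 2. In refed 1, 73.0% of summits (95% Wilson interval 70.5 to 75.4) lay in repeat-masked DNA, against 1.04% in fasted 1, 1.87% in fasted 2 and 1.49% in refed 2. Another 18 refed 1 summits matched mitochondrial DNA, including 5 of its 10 strongest, and the other lists held 0 of these. Whether the antibody enriched its target in refed 1, and whether the list is that of the labelled library, cannot be told from summits alone, so a 0 in refed 1 is a count of summits and not a measure of the mark. Read depth is unknown for all 4 libraries, and the intervals here cover counting error only. Since scores grow with depth, they were not read as levels between livers, and each summit was described by its percentile, the share of summits in its own liver that ranked below it. Percentiles also depend on their list. Over 6643 genes with summits at a matched position near their starts, the median was 57.1 in fasted 1, 66.3 in refed 2 and 76.1 in fasted 2. That is the order of the list lengths. Each refed value is given per replicate, and no mean of the refed pair describes either liver.

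The names of the libraries written inside the lists began with the number 2 in fasted 1 and refed 2 and with 3 in fasted 2, and the refed 1 name had no number. What these numbers stand for is not given in the sources used here. Fasted 1 and refed 2 are thus the fasted and refed livers that share a number, and values for that pair are given beside the others.

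H3K9me2 summits lay close to the starts of genes in 3 of the 4 livers. Within 1000 bp of a RefSeq transcript start were 92.0% of fasted 1 summits (Wilson interval 91.4 to 92.6), 83.5% of fasted 2 summits (82.8 to 84.1), 5.01% of refed 1 summits (3.95 to 6.34) and 90.4% of refed 2 summits (89.8 to 90.9). Such windows cover 1.98% of the chromosomes. Refed 2 lay between the fasted livers, and refed 1 lay far below all of them. The mean was 87.8% ± 6.05 (SD, n = 2) in fasted and 47.7% ± 60.4 (SD, n = 2) in refed livers. The states were not separated in this share (p = 0.667, two-sided exact permutation of the livers), and 2 livers against 2 cannot give less than 0.333. The livers were bulk tissue, so fewer cells with a mark and less mark per cell cannot be told apart.

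Away from starts, gene bodies held 5.50% of fasted 1, 8.98% of fasted 2, 24.4% of refed 1 and 6.06% of refed 2 summits. Intergenic DNA held 2.47%, 7.54%, 70.5% and 3.57% in the same order. Many of these lay at starts that the curated transcripts do not include, since 56.6% of the off-start summits of fasted 1, 43.3% of fasted 2 and 54.8% of refed 2 lay within 1000 bp of a GENCODE or predicted RefSeq start, against 8.12% in refed 1. The off-start summits were also weak for their liver in 3 lists. Their median percentile was 29.0 in fasted 1, 17.8 in fasted 2 and 23.7 in refed 2, while that of summits at starts was 51.7, 56.3 and 52.5. In refed 1 the medians were 43.4 and 57.2.

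Within promoters the summits had a narrow position, just downstream of the start. The median distance was 267 bp downstream in fasted 1 (quartiles 183 to 345), 226 bp in fasted 2 (141 to 299) and 267 bp in refed 2 (183 to 339). The 65 promoter summits of refed 1 were more scattered, with quartiles from −32 bp, which is upstream, to 233 bp. Downstream of the start lay 88.6%, 83.2%, 70.8% and 86.5% of promoter summits in fasted 1, fasted 2, refed 1 and refed 2. Because of this position, a promoter window from 1000 bp upstream to 100 bp downstream held only 13.6% of fasted 1, 16.9% of fasted 2, 2.47% of refed 1 and 14.99% of refed 2 summits. The curves of fasted 1 and refed 2 lay nearly on top of each other, and the curve of fasted 2 was shifted toward the start.

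**Figure D1:**
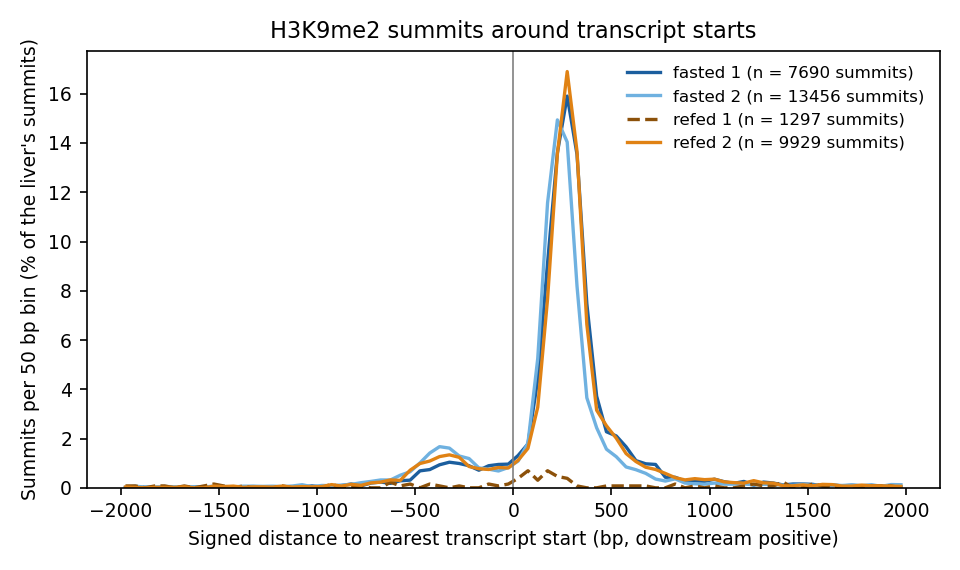
Position of H3K9me2 summits around the nearest transcript start, as the percentage of each liver's summits per 50 bp bin (y axis) against the signed distance in bp (x axis), with 1 line per liver. Fasted 1, fasted 2 and refed 2 peak 200 to 300 bp downstream of the start with a smaller upstream shoulder, and refed 1 stays near 0.

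The DNA under the summits was that of CpG-rich promoters in 3 livers. In 201 bp windows the median GC content was 66.2% in fasted 1, 63.7% in fasted 2 and 64.7% in refed 2, and the median ratio of observed to expected CpG was 0.78, 0.74 and 0.75. Windows placed 250 bp downstream of all annotated starts had 56.7% and 0.50. For genes with a promoter summit in these 3 livers the same windows had 65.2% and 0.78, and for genes with none they had 51.2% and 0.29. Refed 1 summits had 44.3% and 0.21, below all of these. The E-box CACGTG stood in 3.28% of the 201 bp windows in fasted 1, 3.14% in fasted 2, 2.0% in refed 1 and 3.07% in refed 2, and in 2.98% of those at all starts.

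The refed 1 summits were also crowded into a few repeated gene families. Its 8 densest bins of 1 Mb held 275 summits, or 21.2% of the list, while the 8 densest bins of the other livers held 2.69% to 3.02%. A bin on chromosome 6 around the 4.5S RNA gene Rn4.5s held 68 summits. Neighboring bins on chromosome 4 with the major urinary protein genes (Mup), which encode pheromone carriers made in liver, held 41 and 38. The 5S ribosomal RNA cluster on chromosome 8 also held 38, and 18 of 26 5S genes had a summit within 1000 bp in refed 1 and 0 of 26 in each other liver. Histone genes were another family in the list, and 7 of 70 had a refed 1 summit. The highest were H3c7 at percentile 89.5, H3c2 at 87.1 and H3c10 at 85.0, H3c13 and H2bc18 had 74.98 each, and H2bc14 at 33.7 and H4c18 at 29.8 were the lowest. Fasted 2 also had a summit at H3c7, at percentile 31.8, and refed 2 had one there at 8.9. Weaker fasted 2 summits lay at H3c13 and H2bc18, at 18.5 each, at H4c18, at 0.7, and at H3c2, at 0.3. The members of these families are near-identical copies, so a summit at a single member is uncertain.

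Summit positions were widely shared among fasted 1, fasted 2 and refed 2. Of fasted 1 summits, 83.0% (Wilson interval 82.2 to 83.8) had a fasted 2 summit within 200 bp and 81.4% (80.5 to 82.2) a refed 2 summit. Of refed 2 summits, 63.0% had a fasted 1 and 80.9% a fasted 2 partner, and of the longer fasted 2 list 47.4% had a fasted 1 and 59.7% a refed 2 partner. The fasted 1 list thus overlapped nearly as much with the refed 2 list as with the other fasted list. Partners lay a median of 45 to 49 bp apart in these pairs. Of refed 1 summits, 6 had a partner in fasted 1, 26 in fasted 2 and 4 in refed 2, which is 0.46%, 2.0% and 0.31% of its list.

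**Figure D2:**
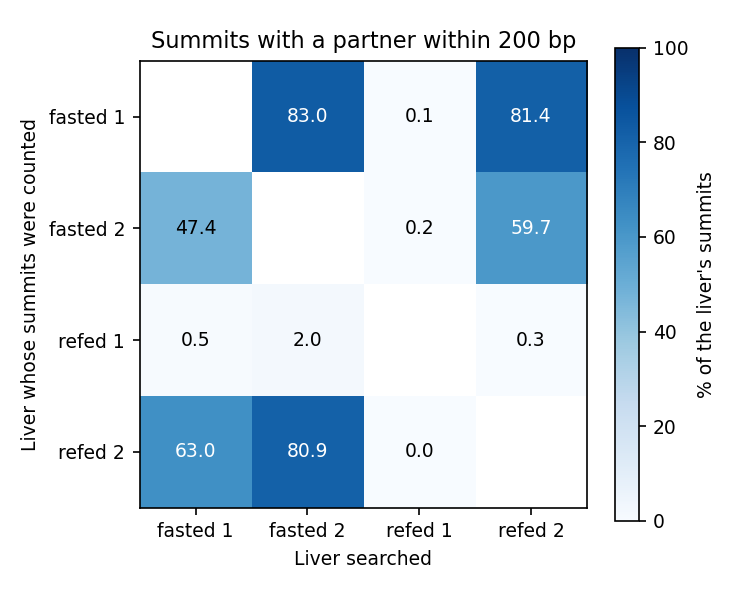
Percentage of each liver's H3K9me2 summits (rows) with a summit within 200 bp in another liver (columns), by color and number. Shares among fasted 1, fasted 2 and refed 2 run from 47.4 to 83.0, and every share that involves refed 1 is at most 2.0.

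The order of the scores was also similar. Over partnered summits, Spearman's rho was 0.67 for fasted 1 with fasted 2 (n = 6384 summits), 0.60 for fasted 1 with refed 2 (n = 6259) and 0.76 for fasted 2 with refed 2 (n = 8029). These are descriptions across summits, which are not independent, and all pairs share the base composition of promoters. The highest value was between a fasted and the refed 2 liver, but each pair had its own set of summits. Over the same 6643 genes with matched summits, rho of the gene percentiles was 0.67, 0.61 and 0.70 for these pairs in turn. The order was the same and the lead smaller. When summits of all livers were joined within 200 bp, 17254 regions resulted, of which 5862 held fasted 1, fasted 2 and refed 2. Fasted 2 alone held 4719 regions, refed 2 alone 1303, refed 1 alone 1267 and fasted 1 alone 724.

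The strongest summits of 3 livers lay just downstream of gene starts. In fasted 1 they were at Dennd5b, Chuk, Ypel5, Hnrnpa2b1 and Sqstm1, the last of which encodes the autophagy receptor p62. In fasted 2 they were at Hsp90aa1, Emc6, Naca, Wdr45b and Rbm5, and in refed 2 at Srsf5, Eif4a1, Hnrnpa2b1, Glyctk and Sec24a, which include splicing, translation and secretion genes. Among the 100 strongest summits, 98 in fasted 1, 99 in fasted 2 and 97 in refed 2 lay at a start, against 3 in refed 1.

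A gene was counted as carrying H3K9me2 at its promoter when a summit lay within 1000 bp of any of its RefSeq starts. Of 26180 annotated genes, 7668 (29.3%) carried it in fasted 1, 11177 (42.7%) in fasted 2, 61 (0.233%) in refed 1 and 9194 (35.1%) in refed 2. Both fasted livers shared 7621 genes (29.1%), and both refed livers 11 (0.042%). A summit in both fasted livers and neither refed liver was found for 272 genes (1.04%), and one in both refed livers and neither fasted liver for 0 genes (0%). Any count that asks for both refed livers can reach at most the 61 genes of refed 1.

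Without refed 1, 7348 genes (28.1%) had a summit in fasted 1, fasted 2 and refed 2, which is most of each gene list. Of fasted 1 genes, 99.4% were also in fasted 2 and 96.3% in refed 2, and of refed 2 genes 80.3% were in fasted 1 and 99.2% in fasted 2. In both fasted livers and not in refed 2 were 273 genes (1.04%), and in refed 2 and no fasted liver 35 (0.134%). The pattern that splits the states was not the most frequent one, since 1773 genes were in fasted 2 and refed 2 without fasted 1 and 1783 in fasted 2 alone. When these 3 lists were held to their 7690 strongest summits, an alternative chosen after seeing the data, 593 genes were in both fasted livers and not in refed 2, 743 in fasted 2 and refed 2 without fasted 1, 251 in fasted 1 and refed 2 without fasted 2, and 332 in refed 2 alone. With every list held to the 1297 summits of refed 1, the order turned, with 296 genes in both fasted livers and not in refed 2 and 422 in refed 2 alone. At that length 283 genes were in fasted 2 and refed 2 without fasted 1, and 210 in fasted 1 and refed 2 without fasted 2. The fasted pair was then the most frequent pair of livers, by a small margin.

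For most of the 273 genes refed 2 had no summit further out either. There was none within 2500 bp of a start for 225 of them, and none within 200 bp of the gene's own fasted summits for 266. These summits were weaker than most, with a median percentile of 30.9, and 37 genes reached percentile 50. Of the 35 genes found in refed 2 only, all but 8 had a fasted 1 summit within 2500 bp, and all but 2 a fasted 2 summit. The refed 2 genes with the highest rank were Pitpnc1, Abcc2, an efflux pump for conjugated bilirubin, and Ugt1a1, which conjugates bilirubin. Abcc2 had refed 2 percentile 94.4, and its nearest fasted summits lay 1460 and 1665 bp from the start. Ugt1a1 had 90.9, with fasted summits at 1024 and 1560 bp. At Abcc2 and Ugt1a1, fasted summits thus lay past the 1000 bp limit. Within 200 bp of the gene's own refed 2 summit, 29 of the 35 genes had no fasted 1 summit and 28 no fasted 2 summit. Within 1000 bp of it, 17 had no fasted 1 and 12 no fasted 2 summit.

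Lipogenic promoters carried H3K9me2 summits in both feeding states. Of 22 genes of fatty acid and triglyceride synthesis and their transcription factors, 15 had a promoter summit in fasted 1, 19 in fasted 2, 0 in refed 1 and 18 in refed 2, beside 29.3%, 42.7%, 0.233% and 35.1% of all genes. These shares of all genes are the background for the counts of each other list. None of the 22 was confined to both fasted livers, and none to refed 2, patterns that 1.04% and 0.134% of all genes had.

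Fasn, the fatty acid synthase gene (chr11:120805958-120824547, minus strand), had its summit 761 bp downstream of the start in fasted 1, 739 bp in fasted 2 and 781 bp in refed 2, all inside the printed window. Its percentile was 60.03 in fasted 1, 66.8 in fasted 2 and 96.1 in refed 2, and the nearest refed 1 summit was 1157882 bp away. The refed 2 value was the highest of the 3, by 29.2 points over the nearer fasted liver. Gpam, which starts glycerolipid synthesis, had 52.9, 78.0 and 99.6, where the fasted 1 summit at the position of refed 2 had percentile 38.4. Both genes ranked higher in refed 2 than in either fasted liver.

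Other lipogenic genes showed other orders. Acly, which makes cytosolic acetyl-CoA, had 47.4 in fasted 1, 94.1 in fasted 2 and 61.0 in refed 2. Srebf1, the gene of SREBP-1c, had 21.1, 79.3 and 52.4, and its summits lay at different starts. Scd1, the stearoyl-CoA desaturase gene, had no summit in fasted 1 and percentile 36.1 in fasted 2 and 17.7 in refed 2. For these genes refed 2 lay between the fasted livers or below the single fasted value. The median over all matched genes also lay between, at 66.3 in refed 2 against 57.1 in fasted 1 and 76.1 in fasted 2. This order is thus not particular to these genes. Acaca, the acetyl-CoA carboxylase gene, had no promoter summit in any liver, and its nearest summits lay 15381 bp away in fasted 1, 15344 bp in fasted 2 and 15356 bp in refed 2. Usf1, an E-box factor gene, had 84.8, 80.6 and 84.0, and Jmjd1c itself had 0.3, 35.7 and 14.1. The Usf1 values were nearly level, and the Jmjd1c summits were among the weakest of fasted 1. None of the genes in this paragraph had a refed 1 summit.

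Among the 13 lipogenic genes with summits at a matched position in fasted 1, fasted 2 and refed 2, 6 ranked higher in refed 2 than in both fasted livers and 1 ranked lower. Over all 6643 genes with matched summits these counts were 1587 (23.9%) and 2268 (34.1%). The difference between the fasted livers was 17.4 points for the median gene and at least 30 points for 1951 genes (29.4%). Shifts of this size thus also occurred between the fasted livers. Over these genes the median percentile was 57.1 in fasted 1 and 76.1 in fasted 2, the longer list. How much of such shifts goes with list length was not tested.

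Cholesterol synthesis, the other pathway under SREBP control, had the widest gap between the fasted livers among the lists examined. All 25 of its genes had a promoter summit in fasted 2 and in refed 2, 12 had one in fasted 1, and 0 in refed 1. Insig1, which holds SREBP in the endoplasmic reticulum, had percentile 42.6 in fasted 1, 76.4 in fasted 2 and 94.6 in refed 2. Of the 10 matched genes, 6 ranked higher in refed 2 than in both fasted livers and 1 lower, and the refed 2 percentile exceeded the fasted mean by a median of 20.5 points, against −0.87 over all matched genes. By the count of promoters, fasted 1 differed more from fasted 2 than fasted 2 did from refed 2.

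Gluconeogenic promoters carried summits in both states as well. Of 14 genes, 11 had one in fasted 1, 13 in fasted 2, 0 in refed 1 and 11 in refed 2. G6pc, the glucose-6-phosphatase gene, had percentile 87.74 in fasted 2 and 75.9 in refed 2, and its fasted 1 summit lay 1188 bp from the start. Pck1, the PEPCK gene, had 37.2 in fasted 2 and 32.0 in refed 2 and no fasted 1 summit closer than 152761 bp. Foxo1, the insulin-inhibited factor that drives both, had 82.3, 98.1 and 87.1 in fasted 1, fasted 2 and refed 2. None of these 3 ranked higher in refed 2 than in every fasted liver that had a summit. For G6pc and Pck1 that was fasted 2 alone, where the median over all matched genes was 76.1, against 66.3 in refed 2. Fbp1, the fructose-1,6-bisphosphatase gene, did, with 91.4, 93.8 and 98.9. Of the 8 matched genes, 1 ranked higher in refed 2 than in both fasted livers and 4 lower, beside 23.9% and 34.1% of all matched genes. Ppargc1a, the coactivator gene PGC-1α, had no summit within 1000 bp in any liver, with the nearest 1301, 1739 and 1758 bp away. Tat and Hnf4a were the members found in both fasted livers and not in refed 2, beside 1.04% of all genes. The nearest refed 2 summits lay only 1327 and 1025 bp from their starts, and at a distance of 2500 bp neither differed.

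Fatty acid oxidation genes nearly all had a promoter summit in fasted 1, fasted 2 and refed 2. Of 24 genes, 23 had a promoter summit in fasted 1, 24 in fasted 2, 0 in refed 1 and 23 in refed 2, beside 29.3%, 42.7%, 0.233% and 35.1% of all genes. Cpt1a, the gate of mitochondrial fatty acid entry, had percentile 96.2, 97.4 and 97.4 in fasted 1, fasted 2 and refed 2. Hsd17b4, an enzyme of peroxisomal oxidation, had 96.5, 96.6 and 94.3. These summits were among the strongest of each of the 3 livers. Of the 21 matched genes, 4 ranked higher in refed 2 than in both fasted livers and 11 ranked lower, beside 23.9% and 34.1% of all matched genes.

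The acyl-CoA thioesterases, which release fatty acids from CoA, included 2 genes with a refed 1 summit. Of 13 genes, 7 had a promoter summit in fasted 1, 9 in fasted 2, 2 in refed 1 and 7 in refed 2. Acot1 had percentile 46.2 in fasted 1, 40.8 in fasted 2, 72.7 in refed 1 and 12.2 in refed 2, the lowest of the 4. Acot5 had 16.4, 24.8 and 70.1 in fasted 1, fasted 2 and refed 1 and none in refed 2. The refed 1 percentiles are ranks within a list whose median score was 3.74. The refed 1 scores were 5.19 at Acot1 and 4.80 at Acot5. The Acot genes on chromosome 12 are close copies of each other, so reads may be split between them.

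The genes known to be induced by fasting included several with summits in the fasted livers only. Of 23 genes, 14 had a promoter summit in fasted 1, 22 in fasted 2, 0 in refed 1 and 14 in refed 2. Of these, 5 had one in both fasted livers and not in refed 2, beside 1.04% of all genes.

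Fgf21, the fasting hormone made in liver, had percentile 49.1 in fasted 1 and 32.0 in fasted 2, and the nearest refed 2 summit was 39913 bp away. Igfbp1 had 30.6 and 36.9, with the nearest refed 2 summit 571307 bp away. Cyp4a14 and Cyp4a10, fatty acid hydroxylases induced through PPARα, had 60.2 and 46.9 and 53.9 and 21.5 in fasted 1 and fasted 2, with refed 2 summits 83581 and 105727 bp away. At these 4 genes refed 2 had no summit anywhere near the promoter, and refed 1 had none either. Cyp4a10 and Cyp4a14 have close copies beside them, so their summits are less certain. Bdh1, a ketone body dehydrogenase, had 13.9 and 52.7, and a refed 2 summit lay 1037 bp from its start, just past the limit.

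The count for this list depended on how it was made. It was 4 at a distance of 2500 bp and 1 (Fgf21) at 500 bp, because the summits of the others lay 566 bp or more downstream in fasted 1. It was 2 (Cyp4a14 and Bdh1) when the 3 lists were held to equal length, because Fgf21, Igfbp1 and Cyp4a10 ranked too low in fasted 2 to be kept. Pdk4, Cidec and Vnn1, further members of the list, had a weak summit in fasted 2 alone, at percentile 16.8, 1.7 and 21.8. Other members were high in both states, since Creb3l3 had 98.4, 98.7 and 97.0 and Lpin1 had 88.0, 99.4 and 98.1 in fasted 1, fasted 2 and refed 2.

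**Figure D3:**
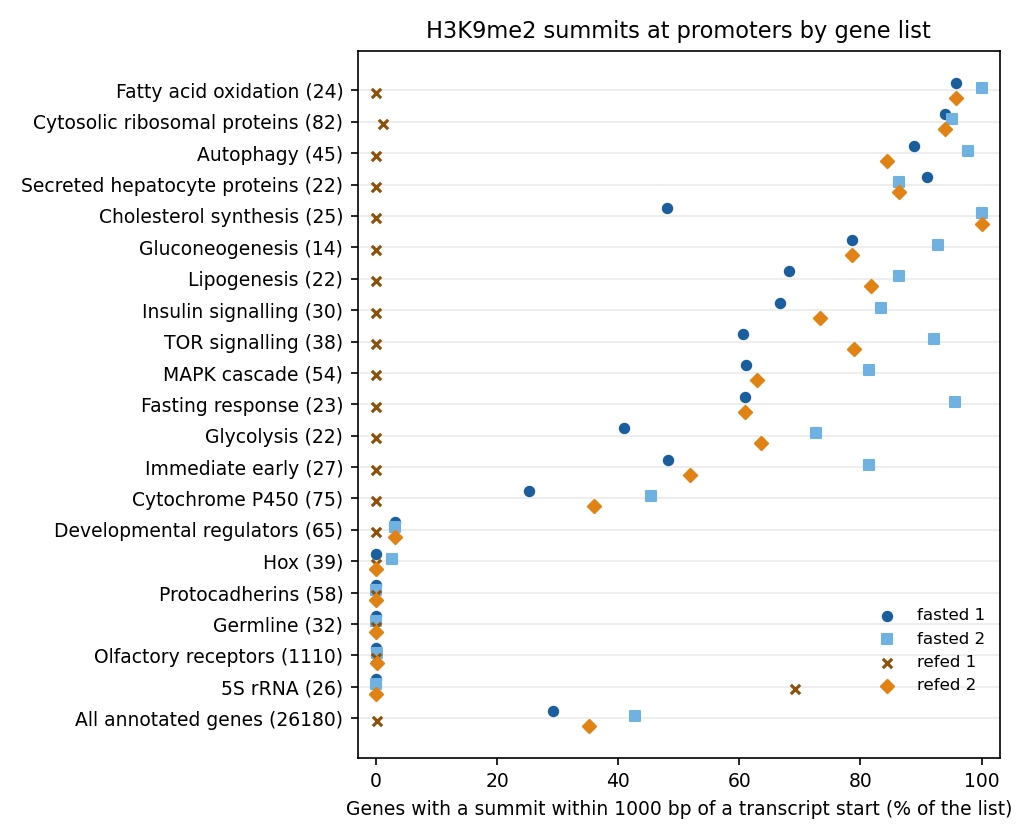
Percentage of the genes of each list with an H3K9me2 summit within 1000 bp of a transcript start (x axis), 1 symbol per liver, with the number of genes in parentheses. Refed 2 lies near or between the fasted livers in most lists, silent gene families lie near 0, and refed 1 stands out at the 5S rRNA genes with 69.2%.

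Signaling genes carried promoter summits in fasted 1, fasted 2 and refed 2, and single members shifted in rank in both directions. Of 30 insulin signaling genes, 20 had a summit in fasted 1, 25 in fasted 2, 0 in refed 1 and 22 in refed 2. Of 38 TOR genes, 23, 35, 0 and 30 had one, and Mlst8, a subunit of both mTOR complexes, was in the fasted livers only, at percentile 43.9 and 47.1. Of 54 MAPK cascade genes, 33, 44, 0 and 34 had one, and Map3k8 was in the fasted livers only, at 12.9 and 23.6. Of all genes, 1.04% were in both fasted livers and not in refed 2. By the number of genes with a summit, refed 2 lay between the fasted livers in each of these lists. Map2k1, which encodes the kinase MEK1, had 48.5 in fasted 1, 54.0 in fasted 2 and 94.1 in refed 2, so it ranked higher in refed 2. Insr, the insulin receptor gene, had 85.1, 81.8 and 89.2. Mapk8, which encodes the kinase JNK1, had 75.1, 74.6 and 42.8, and Tsc2, an inhibitor of mTOR signaling, had 37.7, 39.2 and 5.7, so both ranked lower in refed 2. Among matched genes, 5 of 18 insulin, 6 of 22 TOR and 7 of 31 MAPK genes ranked higher in refed 2 than in both fasted livers, and 5, 8 and 8 ranked lower, beside 23.9% and 34.1% of all matched genes.

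Most autophagy genes had a promoter summit in fasted 1, fasted 2 and refed 2. More of the matched genes ranked lower than higher in refed 2. Of 45 genes, 40 had a promoter summit in fasted 1, 44 in fasted 2, 0 in refed 1 and 38 in refed 2. Map1lc3a, an LC3 gene, had percentile 81.2 in fasted 1 and 66.9 in fasted 2, and the nearest refed 2 summit lay 39632 bp away. The mitophagy receptor gene Bnip3l had 19.6 and 56.7 and Calcoco1 had 7.6 and 33.3, also without a refed 2 summit at the promoter. These 3 genes were 6.67% of the list, and 1.04% of all genes had this pattern. Of 33 matched genes, 18 ranked lower in refed 2 than in both fasted livers and 3 higher, with a median shift of −8.91 points, beside 34.1% and 23.9% of all matched genes. Bnip3 had 97.8, 77.7 and 48.8, Gabarapl1 had 96.8, 83.3 and 63.2 and Sqstm1 had 99.9, 99.9 and 86.0, each lowest in refed 2. No test was made on the list.

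The genes of the H3K9 methylation machinery themselves had promoter summits. Of 25 writers, erasers and readers, 21 had a promoter summit in fasted 1, 22 in fasted 2, 0 in refed 1 and 21 in refed 2. The dimethyltransferase genes Ehmt1 and Ehmt2 had 88.2 and 80.8 in fasted 1, 89.1 and 78.4 in fasted 2 and 75.4 and 72.3 in refed 2. Both ranked somewhat lower in refed 2. Kdm4b, a demethylase gene, had 48.2 and 53.2 in the fasted livers and no refed 2 summit closer than 49571 bp to its start. A promoter summit in both fasted livers and not in refed 2 was found for 1.04% of all genes. Of 54 genes of other chromatin families, 35, 45, 0 and 40 had a summit in fasted 1, fasted 2, refed 1 and refed 2, beside 29.3%, 42.7%, 0.233% and 35.1% of all genes. Of the 25 matched genes among them, 13 ranked lower in refed 2 than in both fasted livers and 2 higher, beside 34.1% and 23.9% of all matched genes.

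Among all 6643 matched genes, few ranked far outside the fasted range in refed 2. At least 30 points above both fasted livers were 32 genes (0.482%), and at least 30 points below both were 264 (3.97%), an asymmetry that was not tested. Refed 2 lay between the fasted livers for 2788 genes, and outside them by a median of 8.43 points for 3855. Nr0b2 had percentile 32.9 in fasted 1, 54.8 in fasted 2 and 97.9 in refed 2. Mmut, the methylmalonyl-CoA mutase gene, and Cenpq share a summit with 13.4, 43.5 and 88.4. These genes and Map2k1 were the largest shifts upward by this measure.

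The largest shifts downward included Zfp428, with 79.4 in fasted 1, 80.9 in fasted 2 and 7.6 in refed 2, and Pttg1ip, with 70.3, 66.5 and 2.9. Slc39a1, a zinc transporter gene, had 81.0, 85.6 and 17.9. Hsd17b13, a lipid droplet protein of hepatocytes, had 67.4, 69.4 and 10.1. In each of these the fasted livers were close to each other and refed 2 was far below. These 10 highest and 10 lowest genes were chosen after their values were seen, and with 1 refed liver behind them their shift cannot be told apart from a difference between single mice.

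**Figure D4:**
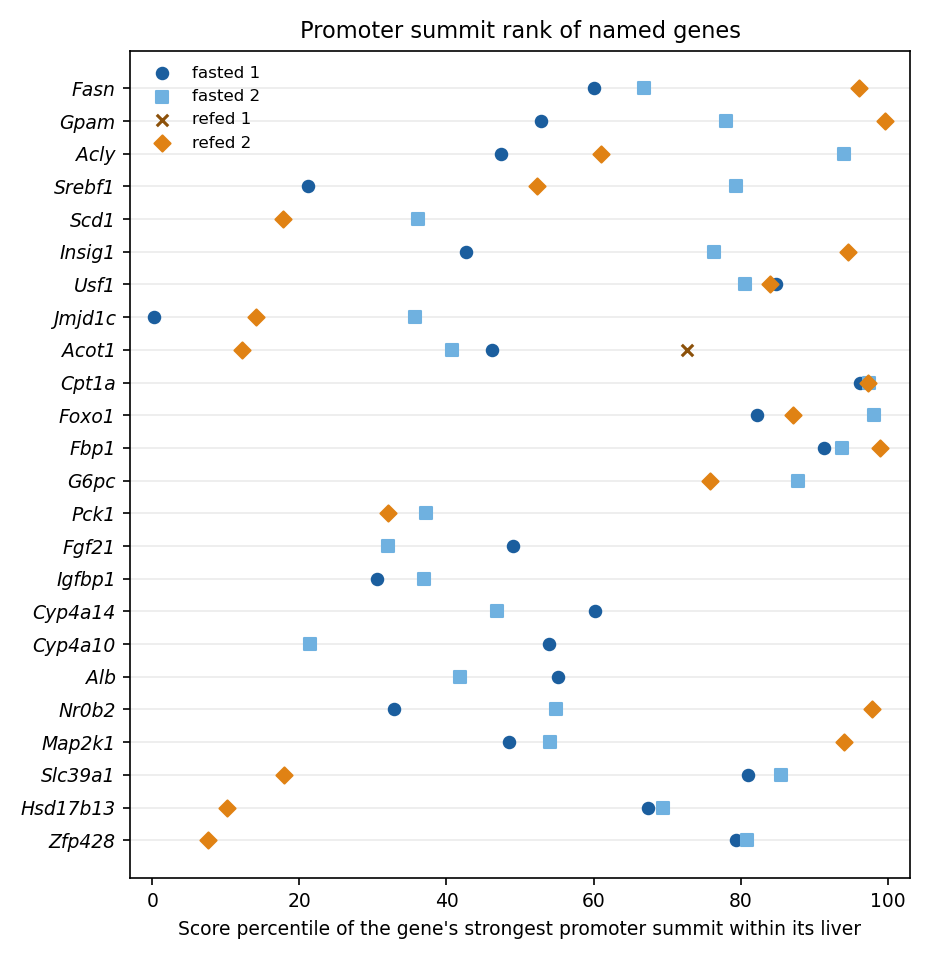
Score percentile of the strongest H3K9me2 promoter summit within its own liver (x axis) for named genes, 1 symbol per liver, where a missing symbol means no summit within 1000 bp. Fasn, Gpam, Insig1, Nr0b2 and Map2k1 are highest in refed 2, Slc39a1, Hsd17b13 and Zfp428 are lowest there, and Fgf21, Igfbp1, Cyp4a14, Cyp4a10 and Alb have no refed symbol.

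Secreted hepatocyte proteins, the clock and stress-induced genes gave further single differences. Alb had percentile 55.2 in fasted 1 and 41.9 in fasted 2 and no refed 2 summit closer than 58628 bp, while of 22 secreted protein genes 20 had one in fasted 1, 19 in fasted 2, 0 in refed 1 and 19 in refed 2, beside 29.3%, 42.7%, 0.233% and 35.1% of all genes. Apob, the apolipoprotein of VLDL, had 96.0, 96.8 and 96.0, and Ttr had 88.6, 90.5 and 84.4. Of 27 immediate early genes 13 had a summit in fasted 1, 22 in fasted 2, 0 in refed 1 and 14 in refed 2. Egr1 was in both fasted livers, at 74.3 and 50.2, with no refed 2 summit closer than 70419 bp to its start. The pattern of Alb and Egr1, both fasted livers and not refed 2, was that of 1.04% of all genes. In the clock list, Arntl, the BMAL1 gene, had 63.3, 54.5 and 9.1, and Nr1d1, a repressor of Arntl, had 99.9, 99.5 and 98.4.

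Families that are silent in liver carried almost no summits. Of 1110 olfactory receptor genes, 0 had a promoter summit in fasted 1, 1 in fasted 2, 0 in refed 1 and 1 in refed 2. None of 58 clustered protocadherin genes and none of 32 germline genes had one in any liver. Of 39 Hox genes, 1 had one, in fasted 2. Of 65 developmental regulators, 2 had one in fasted 1, fasted 2 and refed 2, namely Foxa1, which is expressed in hepatocytes, and Bmi1. Cytosolic ribosomal protein genes were at the other end, with 77 of 82 in fasted 1, 78 in fasted 2, 1 in refed 1 and 77 in refed 2.

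The 2 WT refed RNA-seq libraries, which the paper describes as pooled RNA samples, gave the same division across the genome. A level per transcript length was computed from them as TPM. Of genes with a promoter summit in fasted 1, fasted 2 and refed 2, 93.7% were in the RNA table, and 95.5% of those had at least 1 TPM, with a median of 15.1 and 15.6 TPM in the libraries. Of genes with a summit in no liver 31.5% were in the table, and 29.5% of those reached 1 TPM, beside 71.8% of all genes in the table. The table lists some genes only, and genes outside it were not counted as silent. In the lowest RNA percentiles, from 0 to 10, 3.17% of genes had a promoter summit in fasted 1, 10.8% in fasted 2, 0% in refed 1 and 5.75% in refed 2. In the percentiles from 90 to 100 the shares were 83.5%, 95.05%, 0.33% and 90.2%. Well expressed genes thus had a promoter summit more often than silent genes in fasted 1, fasted 2 and refed 2 alike. In these lists too, summits alone do not show that the antibody enriched its target, which was not tested. Across genes the Spearman correlation of the score percentile with TPM was 0.29 in fasted 1 (n = 7181 genes), 0.44 in fasted 2 (n = 10374) and 0.32 in refed 2 (n = 8597). CpG content moved with both, as given above, and its part was not tested.

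**Figure D5:**
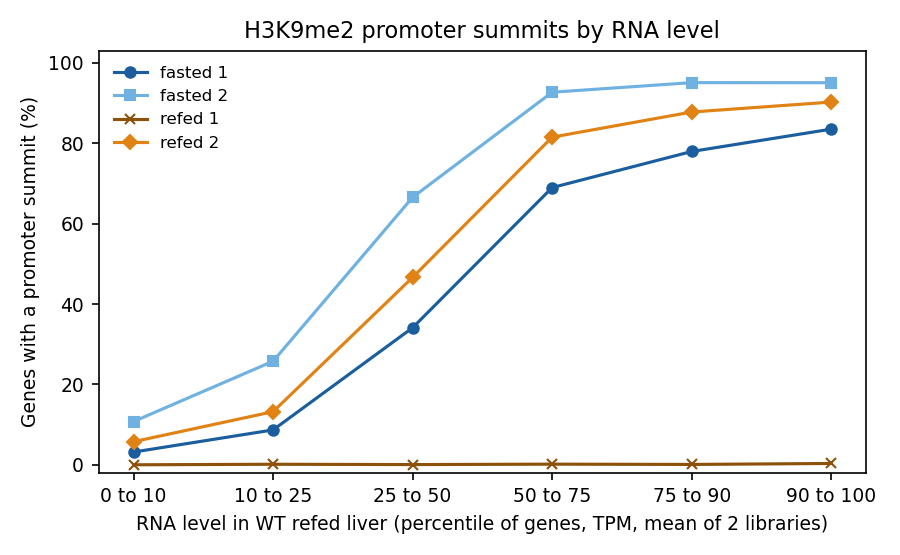
Percentage of genes with an H3K9me2 promoter summit (y axis) by percentile of RNA level in WT refed liver (x axis, mean TPM of 2 libraries), with 1 line per ChIP liver. The share climbs from 3.17 to 83.5 in fasted 1, 10.8 to 95.05 in fasted 2 and 5.75 to 90.2 in refed 2, and stays below 1 in refed 1.

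Genes found in both fasted livers and not in refed 2 had at least 1 TPM after refeeding for 91.8% of the 257 in the RNA table, and genes found in refed 2 alone for 77.4% of 31. Fgf21 had 54.4 and 50.04 TPM in the refed RNA libraries and Igfbp1 5.51 and 7.09. Of the 42 genes (0.16% of all) found in refed 1 alone 7 were in the table, and 5 of these reached 1 TPM. No RNA from fasted liver was used here, so the change of RNA with feeding was not analysed.

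ATAC-seq summits, which mark open DNA, were fewer at promoters, and most promoters with one also had an H3K9me2 summit in fasted 1, fasted 2 and refed 2. Of the genes with an ATAC promoter summit in fasted ATAC liver 1, 70.5% had an H3K9me2 summit in fasted 1 and 95.7% in fasted 2, and of those in refed ATAC liver 2, 84.8% had one in refed 2 and 0.43% in refed 1. The exact positions differed. Where a promoter had both, the H3K9me2 summit lay a median of 362.5 bp downstream of the ATAC summit in fasted 1, 343 bp in fasted 2 and 409 bp in refed 2, and 2 bp in refed 1 (n = 17 summits). Accordingly, 0.91% to 6.81% of summits in fasted 1, fasted 2 and refed 2 lay within 200 bp of an ATAC summit of any WT liver, against 12.4% to 13.8% in refed 1, where 100 to 109 of the 161 to 179 shared positions were in repeats. Some repeat positions of refed 1 were thus also called in the ATAC lists, which were made without the antibody.

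Hepatocytes make up most of the liver, and their markers were compared with those of other liver cells. Of 5 hepatocyte markers, 4 had a promoter summit in fasted 1, 4 in fasted 2, 0 in refed 1 and 3 in refed 2, where Alb and Serpina1a had none. Of the endothelial, Kupffer, cholangiocyte, lymphocyte, stellate and erythroid markers, none had one in fasted 1, refed 1 or refed 2, and fasted 2 had weak ones at Kdr (percentile 6.5) and Reln (5.5). The Kupffer cell gene Clec4f had 59.4 and 61.2 TPM and the stellate cell gene Dcn 105 and 109 TPM in the refed RNA without a promoter summit in any liver.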

How the data were processed

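H3K9me2 ChIP-seq summits of 4 WT livers (2 fasted, 2 refed) were analysed. WT ATAC-seq summits and 2 WT refed RNA-seq libraries, each of pooled RNA per the paper, were further readouts. Per the paper's methods, the authors used Bowtie2 with the mm10 genome and kept uniquely aligned reads, while the submitters' processing notes name BWA, cutadapt 1.2.1 and bcl2fastq 2.2. Peaks were called in each sample against its input with MACS2 2.1.1 at a q-value cutoff of 0.05. The deposited summit lists give a position and a score, the −log10 of the q-value, without read counts, so depth is unknown. The deposited RNA table gives the authors' estimated counts per transcript, which sum to 51387300 and 51265128 per WT library, and TPM was computed from these with RefSeq transcript lengths (24682 of 24994 transcripts matched).

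Positions were converted to 1-based coordinates and compared with 45756 curated RefSeq transcripts of 26180 genes on mm10, in Python 3.11.15 with pandas 2.3.3, scipy 1.17.1 and pysam 0.24.0. A promoter summit lay within 1000 bp of a start, and shared summits within 200 bp of each other. A gene took the percentile of its strongest promoter summit, with ties at the middle rank, and percentiles were compared between livers where the strongest summits lay within 500 bp. Repeats were taken as windows of 201 bp at least 50% masked, and mitochondrial matches as shared runs of 25 bases. Shares have 95% Wilson intervals. With 2 livers against 2, no test was made across genes, and the share at starts was compared by exact permutation. The position, overlap and gene counts were tested on simulated data. Named genes were those the study discusses, the 10 genes of best mean percentile in each presence pattern, up to 6 members of each list, and the 5 strongest summits per liver. Members and lists were chosen with earlier results of these data known. The histone, 5S and Mup lists and the largest rank shifts were added after seeing the data. Some genes are not reported here. Alternatives covered distance, score, list length, transcripts, repeats and each replicate.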

Additional observations from a re-analysis of the deposited data

How the results depend on the processing

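With the livers paired by replicate number as a replicate block, which was added once the data had been seen, the exact permutation p of the share at starts was 1 instead of 0.667, where 2 pairs cannot give less than 0.5. Refed minus fasted was −87.02 points for replicate 1 and 6.89 points for replicate 2, and what the numbers stand for is not given. The counts come from no test that a block could enter. Of 108 alternative values, 41 moved by more than 1 SD or the interval, or for counts by more than the allowed factor, and 67 did not. Those 67 include wide swings of the refed mean share at starts (47.7%), whose SD was 60.4 points. It was 90.4% without refed 1, 5.01% without refed 2 and 8.73% from 1000 bp upstream to 100 bp downstream. The count of 67 is thus no measure of stability for that share. Genes in both refed livers (11) were 4 at 500 bp, 21 at 2500 bp, 4 with equal list lengths, 3 with a score of at least 5, 9244 in either liver, and from 11 to 9194 when a liver was left out, with 9194 without refed 1 and 61 without refed 2. Genes in both fasted and no refed liver (272) were 475 at 500 bp, 593 with 7690 summits per list, 2057 in either liver, and from 273 to 7612 when a liver was left out, with 2048 without fasted 1 and 7612 without refed 2. Genes in both refed and no fasted liver (0) were 2 with equal list lengths, 1 with 7690 summits per list, 77 in either liver, and from 0 to 42 when a liver was left out. Genes in both fasted livers (7621) were 890 with equal list lengths. Genes in both fasted livers and not refed 2 (273) were 476 at 500 bp and 593 with 7690 summits per list, and genes in refed 2 and no fasted liver (35) were 161, 7 at 2500 bp, 332 and, with equal list lengths, 422, while genes in all 3 lists (7348) were 594. The fasted mean share at starts (87.8%) was 96.8% with equal list lengths and 15.2% from 1000 bp upstream to 100 bp downstream, since most summits lay further downstream. The share of fasted 1 summits found in fasted 2 (83.0%) was 68.8% within 100 bp, 89.8% within 500 bp, 97.3% within 1000 bp, 54.4% with equal list lengths and 76.4% with 7690 summits per list. That found in refed 2 (81.4%) was 65.6%, 89.9%, 94.9%, 47.7% and 72.9%. The share of refed 1 summits found in refed 2 was 1.16% within 1000 bp. Away from starts, the rank correlation was 0.59 for the fasted pair and 0.40 for fasted 1 with refed 2. Equal list lengths means 1297 summits, and both that limit for counts without refed 1 and the 7690 limit were chosen after seeing the data. Summit lists show where a peak passed a threshold, so a missing summit at unknown depth is not a missing mark.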

Other observations

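Among the lists examined, the number of zinc finger genes differed most between fasted 1 and fasted 2, at 40.5% and 77.2% of the list. All genes had 29.3% and 42.7%. As a share, cholesterol synthesis genes had a wider gap, at 48% and 100%. Of 368 Zfp genes, 149 had a promoter summit in fasted 1, 284 in fasted 2, 2 in refed 1 and 205 in refed 2. In both fasted livers and not in refed 2 were 7 (1.90%), near the 1.04% of all genes. Histone genes also differed between the fasted livers, with 14 of 70 in fasted 1, 41 in fasted 2, 7 in refed 1 and 15 in refed 2. Here refed 2 was close to fasted 1, while for Zfp genes it lay between the fasted livers. Of 22 Mup genes, 6 had a summit in fasted 2 and 5 in refed 1, with 0 in fasted 1 and refed 2. Mup10 was in both lists, at percentile 1.7 in fasted 2 and 30.1 in refed 1.

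Cytochrome P450 and solute carrier genes lay near the shares of all genes, which were 29.3% in fasted 1, 42.7% in fasted 2, 0.233% in refed 1 and 35.1% in refed 2. Of 75 genes of cytochrome P450 families 1 to 4, 19 had a promoter summit in fasted 1, 34 in fasted 2, 0 in refed 1 and 27 in refed 2. Of 337 solute carriers, 97, 159, 0 and 129 had one. Glycolysis genes lay above them, with 40.9%, 72.7%, 0% and 63.6% of 22 genes. Pklr, the liver pyruvate kinase gene, had percentile 37.8 in fasted 2 and 86.8 in refed 2 and none in fasted 1. MicroRNA genes lay below them, with 62, 94, 0 and 79 of 1190.

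Of 71 translation factor genes, 52 had a promoter summit in fasted 1, 65 in fasted 2, 0 in refed 1 and 60 in refed 2. Of 37 imprinted genes, 10, 13, 0 and 7 had one. Igf2r, Impact and Slc38a4 were in both fasted livers and not in refed 2, which is 8.11% of the list, beside 1.04% of all genes. Slc38a4, an amino acid transporter of hepatocytes, had percentile 36.6 in fasted 1 and 87.71 in fasted 2, and Igf2r had 2.8 and 40.7.

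The sex chromosomes held different shares in refed 1. Chromosome X held 1.51% of fasted 1, 2.67% of fasted 2, 6.01% of refed 1 and 2.1% of refed 2 summits, and chromosome Y held 3, 8, 28 and 5 summits.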
